A study of Homo sapiens with 6 samples.

Results

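The 10 melanoma-associated antigen genes MAGEA1, MAGEA2, MAGEA3, MAGEA4, MAGEA6, MAGEA8, MAGEA10, MAGEA12, MAGEC1 and MAGEC2 were followed by RNA sequencing in A375 cells, an established human melanoma line. The genes were chosen by name from the MAGEA and MAGEC families, with earlier results of these data in view, and all 10 were found among the 58302 gene IDs of the count tables. The study had 6 libraries in 2 groups of 3. Empty vector cells stably carried a vector without insert, and HMGB2 overexpression cells (HMGB2 OE) stably overexpressed HMGB2, a chromatin protein that bends DNA. Both groups were A375 cells, the overexpressing line was made by lentiviral transduction, and the labels name no other treatment. The study's reporting form describes replicates as technical, so the errors given are those between pellets of the same line, and separate transductions were not compared.

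MAGE proteins share a folded region, the MAGE homology domain, through which they bind ubiquitin ligases and alter which proteins those ligases mark for breakdown. Type I MAGE genes (the MAGEA, MAGEB and MAGEC families) lie on the X chromosome, are active in germ cells of the testis, are kept silent in most other tissues by DNA methylation of their promoters, and are active again in many tumours. Peptides of these proteins are shown on the cell surface by HLA molecules and can be recognised by T cells, which is why the family is known as cancer-testis antigens in melanoma. Type II MAGE genes are active in many normal tissues.

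The coding sequences of some MAGEA members are so alike that a short read may match several of them. The first 60 coding bases are shown for the members on which the results turn (hg38, chromosome X, canonical transcripts of GENCODE 44). Capitals mark the bases that differ from MAGEA1. The stretches lie at chrX:153182390-153182449 (plus strand) for MAGEA1, chrX:151923665-151923724 (plus strand) for MAGEA4, chrX:152736162-152736221 (plus strand) for MAGEA12, chrX:152700833-152700892 (plus strand) for MAGEA3 and chrX:152767591-152767650 (minus strand) for MAGEA6.
MAGEA1: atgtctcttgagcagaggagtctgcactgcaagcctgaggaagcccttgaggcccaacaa
MAGEA4: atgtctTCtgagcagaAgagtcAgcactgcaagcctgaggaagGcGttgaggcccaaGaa
MAGEA12: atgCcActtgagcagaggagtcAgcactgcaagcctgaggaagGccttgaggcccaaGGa
MAGEA3: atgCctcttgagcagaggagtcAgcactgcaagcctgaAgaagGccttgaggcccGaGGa
MAGEA6: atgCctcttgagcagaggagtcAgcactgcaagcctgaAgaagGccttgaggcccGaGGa

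MAGEA4, MAGEA3 and MAGEA6 each differed from MAGEA1 at 7 of these 60 bases and MAGEA12 at 6, and the MAGEA3 and MAGEA6 stretches were the same. Over the whole coding sequence MAGEA3 and MAGEA6 were 98.1% identical, with 18 differing positions in 942. MAGEA1 was closest to MAGEA4, at 85.4%, and was 80.4% identical to MAGEA3. MAGEA2 was closest to MAGEA12, at 93.2%.

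Reads that map to several places were counted for no gene, so the share of each gene's sequence that recurs elsewhere limits its count. That share was computed as the percentage of 50-base words of the annotated transcripts that also occur in transcripts of another gene. It was 0.662% for MAGEA1, all of it shared with MAGEA4, and it stood at 0.384% for MAGEC1, 0.0514% for MAGEC2 and 0.582% for MAGEA8. It was intermediate for MAGEA4 (6.29%), MAGEA12 (13.7%) and MAGEA10 (16.0%). For MAGEA3 it was 55.8%, mostly shared with MAGEA6, and for MAGEA6 it was 53.7%, mostly shared with MAGEA3. For MAGEA2 it reached 96.4%, owing to MAGEA2B, a near-identical copy. With words of 150 bases the share was 0 for MAGEA1, 27.8% for MAGEA3, 26.5% for MAGEA6 and 88.0% for MAGEA2. The counts of MAGEA2, MAGEA3 and MAGEA6 are therefore uncertain as levels, and those of MAGEA1, MAGEC1, MAGEC2 and MAGEA8 are the least affected.

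**Figure D1:**
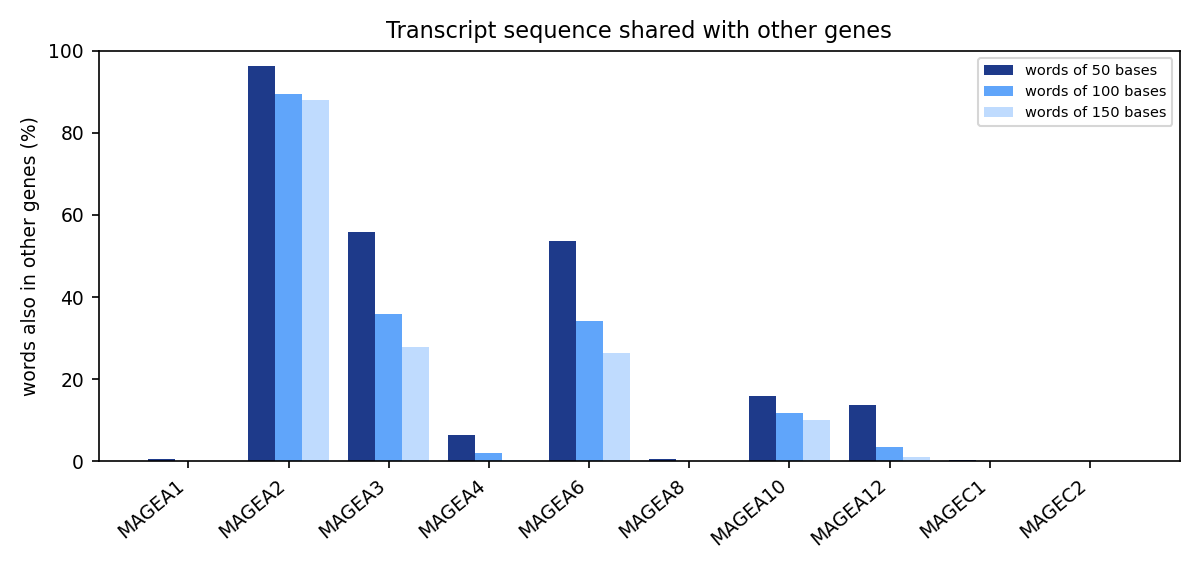
Bars show the percentage of transcript words shared with another gene for each member, for words of 50, 100 and 150 bases. MAGEA2 has the highest bars (96.4% at 50 bases), followed by MAGEA3 and MAGEA6, and MAGEA1 is near 0.

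Reads assigned to genes numbered between 45925053 and 56755212 per library. Counts were compared with DESeq2 across all genes, and genes with a Benjamini-Hochberg adjusted p under 0.05 were called. Normalized counts are read counts divided by DESeq2 size factors, and log2 fold changes are HMGB2 OE minus empty vector given with their standard error (SE) from the model. HMGB2, the overexpressed gene, stood at 7514 ± 243 normalized counts in empty vector cells (SD, n = 3) and at 15517 ± 1177 in HMGB2 OE cells (log2 fold change 1.05, SE 0.10, DESeq2 adjusted p = 4.4e-22). Of 18836 genes with an adjusted p, 930 were called (4.94%), 432 higher (2.29%) and 498 lower (2.64%), and the median log2 fold change was 0.0027. Multimapped reads ranged from 2.58% to 10.6% of reads and ambiguous reads, which fall where genes overlap, from 10.7% to 11.4%.

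The melanocyte markers were only partly present. MITF, the master regulator of the lineage, ranged from 1381 to 1719 in normalized count and S100B from 3346 to 3841, whereas TYR, the enzyme of melanin synthesis, was at or below 1 count in every library. SOX10 was listed at 0 and kept 0% of the sum of its stranded count columns, and PMEL kept 3.37%. In each library the first stranded column held 50.1% to 50.2% of the stranded reads, so strand was not resolved. Stranded reads where genes overlap may belong to the gene on the other strand, so SOX10 cannot be judged. The summed normalized count of the 8 markers was 4877 to 5096 with the empty vector and 5302 to 5624 with HMGB2 OE. None of the 5 markers with an adjusted p was called by DESeq2, none had an unadjusted p under 0.05, and edgeR's quasi-likelihood test called none. Of 10 germ cell markers, 6 were at 0 in all libraries and DDX4 had 1 read in total. The summed normalized count of the germ cell list was 7.51 to 14.2 with the empty vector and 20.3 to 27.3 with HMGB2 OE, mostly ACRV1, an acrosome protein gene (9.09, 12.4 and 6.44 against 24.5, 23.6 and 15.8, log2 fold change 1.19, DESeq2 adjusted p = 0.266). ACRV1 was the only germ cell marker tested, and it had an unadjusted p under 0.05 with both DESeq2 and edgeR. SYCP3, also on the germ cell list, kept 0.430% of its stranded sum, so it cannot be judged and the list sum is uncertain. Leukocyte, endothelial and epithelial markers summed to 864 to 1278 with the empty vector and 1039 to 1345 with HMGB2 OE. The sum was made up largely of the epithelial genes KRT14 (421 to 694 over all libraries), EPCAM (212 to 372) and KRT5 (5.05 to 289). The endothelial genes VWF (38.2 to 67.7) and PECAM1 (25.7 to 55.4) were also present, and the leukocyte gene PTPRC was at 0. The leukocyte gene CD68 kept 0.299% of its stranded sum and cannot be judged. Of the 6 tested, 0 were called by DESeq2, 0 by edgeR and 0 had an unadjusted p under 0.05. The part of these lists in the results below was not tested.

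MAGEA1 had the largest log2 fold change among the members with an adjusted p. MAGEA1 (ENSG00000198681; hg38 chromosome X, 153179284 to 153183880, plus strand), the gene of a melanoma antigen recognised by cytotoxic T cells, had normalized counts of 45.5, 38.1 and 45.1 in empty vector replicates 1, 2 and 3. In HMGB2 OE replicates 1, 2 and 3 it had 223, 272 and 255. Every HMGB2 OE library lay above every empty vector library, and the raw reads behind these values summed to 130 and 749. The means were 42.9 ± 4.15 and 250.3 ± 24.6 (SD, n = 3), a ratio of means of 5.84 and a log2 fold change of 2.55 (SE 0.22). These values belong to the results by which the members were chosen and are given as a description without a test. In bulk libraries, a change in the number of cells with MAGEA1 RNA and a change in the RNA per cell cannot be told apart.

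The MAGEA1 value under other settings is given as a description only. The count taking reads of either strand held 96.8% of the sum of the stranded count columns. The log2 fold change lay between 2.45 and 2.62 in 14 alternative settings. The lowest, 2.45, came from the sum of the stranded columns, the setting that changed how reads were counted. The settings that left out 1 library, which are among the 14, gave 2.46 to 2.62. Within replicates 1 and 2 the HMGB2 OE mean was 5.93 times the empty vector mean, and in the third replicates the ratio was 5.67.

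Of the 10 members, 9 had an adjusted p and MAGEA8 was set aside by DESeq2's filter on low means. Of the 9, 1 was called higher (MAGEA1) and 0 lower, beside 4.94% of all tested genes called in either direction. The groups did not overlap for 2 of the 9, MAGEA1 and MAGEC1, beside 21.9% of all tested genes. The median log2 fold change of the 9 was 0.07, and nothing is read from these counts because the members were chosen with the contrast known.

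**Figure D2:**
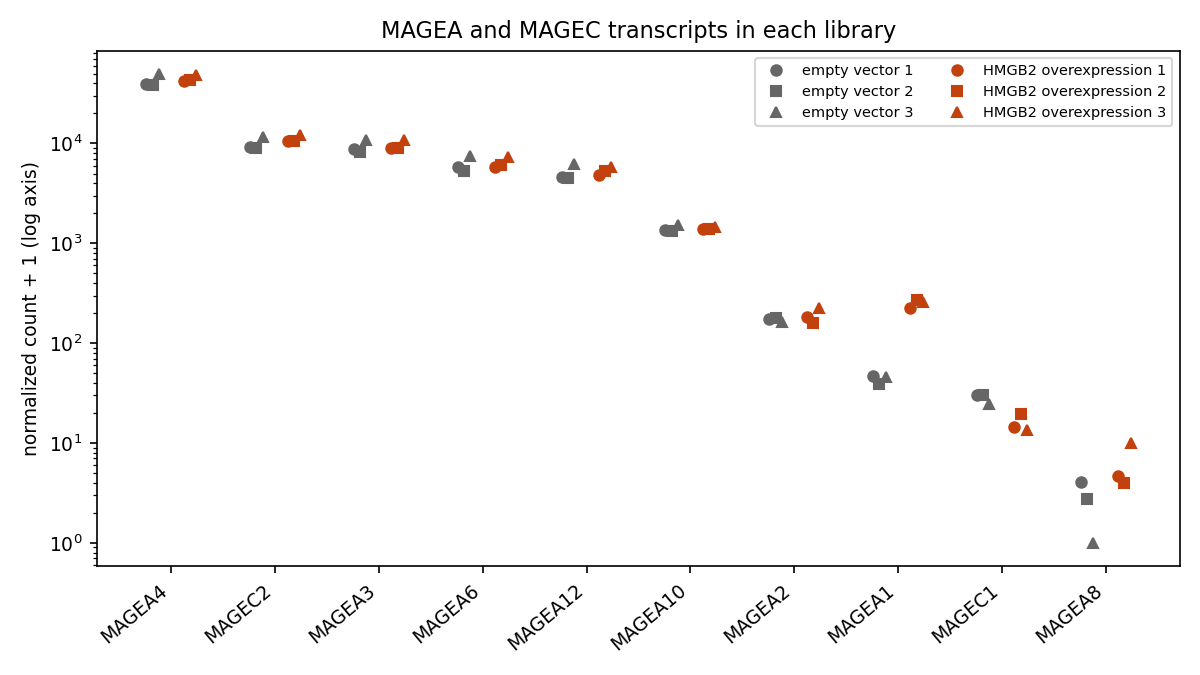
Each point is 1 library, with the normalized count + 1 on a log axis, the empty vector in grey, HMGB2 OE in orange and the replicate by marker shape; no means or errors are drawn. The MAGEA1 groups stand apart (normalized counts 38.1 to 45.5 and 223 to 272), while those of MAGEA4 overlap (38124 to 49445 in all 6 libraries).

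MAGEA4, which binds the DNA repair ligase RAD18, was the most abundant member. Its normalized counts were 39200.4, 38124 and 49445 with the empty vector and 42606, 43359 and 48151 with HMGB2 OE. The groups overlapped, with a log2 fold change of 0.08 (SE 0.13), which ranged from 0.01 to 0.21 when any 1 library was left out. MAGEA4 held 56.8 ± 0.281% of the members' normalized counts with the empty vector and 56.5 ± 0.726% with HMGB2 OE (SD, n = 3). MAGEA1 held 0.0582 ± 0.00719% and 0.317 ± 0.0346%. MAGEA4 thus had 987 ± 118 normalized counts for each of MAGEA1 with the empty vector and 179.5 ± 17.4 with HMGB2 OE.

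MAGEA3 and MAGEA6, whose proteins bind the ligase TRIM28, had overlapping groups. MAGEA3 had 8718, 8168 and 10873 with the empty vector and 9095, 9067 and 10922 with HMGB2 OE (log2 fold change 0.07, SE 0.14). MAGEA6 had 5762, 5354 and 7416 against 5768, 6114 and 7277 (log2 fold change 0.05, SE 0.15). The ratio of MAGEA3 to MAGEA6 stayed between 1.47 and 1.58 over the 6 libraries while the counts themselves varied more, and reads that fit both genes are in neither count.

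MAGEA12 and MAGEA2 lie between MAGEA3 and MAGEA6 on the chromosome. MAGEA12, whose peptides are also melanoma antigens, had 4618, 4504 and 6287 against 4886, 5283 and 5870.3 (log2 fold change 0.06, SE 0.15). MAGEA2, which binds TRIM28 and p53, had 174, 176 and 162 against 180, 158 and 225 (log2 fold change 0.13, SE 0.20). Both had overlapping groups, and the MAGEA2 counts come from the few reads that tell it from MAGEA2B.

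MAGEA10 had 1367, 1333 and 1518 against 1391, 1381 and 1462. Its log2 fold change, 0.01 (SE 0.11), was the closest to 0 among the members. MAGEA8 was at the floor, with raw counts of 3, 2 and 0 against 4, 3 and 8, or 5 reads against 15. Its ratio, 3.05 with a 95% counting interval from 1.05 to 10.7, covers counting error only.

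MAGEC1 and MAGEC2, which lie on the X chromosome apart from the MAGEA genes, differed in level. MAGEC2, whose protein also binds TRIM28, had 9128, 8995 and 11616 with the empty vector and 10648, 10528 and 12302 with HMGB2 OE. The groups overlapped through the high value of empty vector replicate 3, and the log2 fold change was 0.17 (SE 0.14). Its share of the members' normalized counts was 13.3 ± 0.134% with the empty vector and 14.1 ± 0.236% with HMGB2 OE (SD, n = 3). MAGEC1, an antigen gene also known from myeloma, had 29.3, 29.2 and 23.6 against 13.6, 18.7 and 12.4. Its groups did not overlap, with 84 raw reads against 45. MAGEC1 was not called (log2 fold change -0.88, SE 0.45), and it was the member with the lowest count that had an adjusted p.

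The third replicate of the empty vector stood apart for the abundant members. There the normalized count exceeded the mean of replicates 1 and 2 by a ratio of 1.29 for MAGEA3, 1.28 for MAGEA4, 1.33 for MAGEA6, 1.38 for MAGEA12 and 1.28 for MAGEC2. In the third HMGB2 OE replicate these ratios were 1.20, 1.12, 1.22, 1.15 and 1.16. MAGEA10 and MAGEA1 moved less, with ratios of 1.12 and 1.08 in the empty vector and 1.05 and 1.03 in HMGB2 OE. KRT5, a keratin of basal epithelium, had 5.05, 11.5 and 279 with the empty vector and 249.8, 199.9 and 289 with HMGB2 OE, so the third empty vector library differed from its group in other genes too. Its part in the members' values was not tested. Without that library, MAGEC2 was also called higher, with a log2 fold change of 0.30, and 2 members were called rather than 1. In that setting 17.8% of all tested genes were called. With a batch term for replicate number 3, MAGEA1 and MAGEC2 were called higher, beside 17.3% of all tested genes. With replicates 1 and 2 alone, MAGEA1, MAGEA4 and MAGEC2 were called higher, beside 17.4% of all tested genes.

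**Figure D3:**
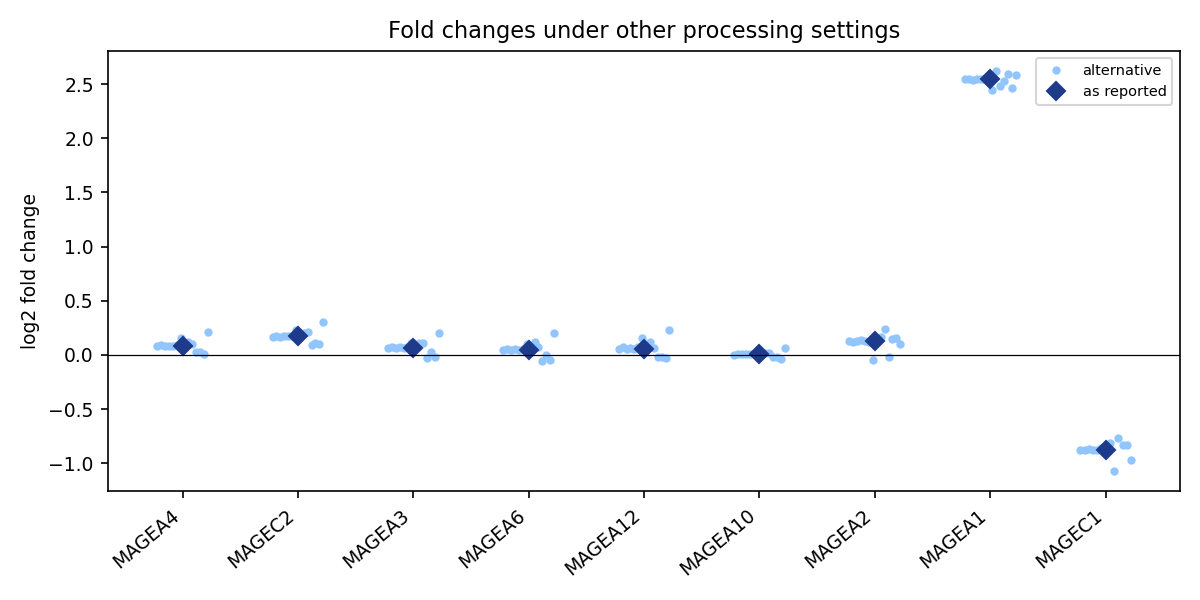
Points show the log2 fold change of each member (HMGB2 OE minus empty vector) as reported and in the alternative settings. MAGEA1 stays between 2.45 and 2.62, MAGEC1 stays below 0, and the abundant members stay near 0. MAGEA8 has no adjusted p and is not drawn.

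Levels were compared between genes per kilobase of sequence not shared with other genes, in normalized counts per kilobase. With the empty vector the order was MAGEA4 (16782 ± 2482), MAGEA3 (11908 ± 1840), MAGEA6 (7242 ± 1280), MAGEC2 (5099 ± 760), MAGEA12 (3030.2 ± 589), MAGEA2 (1876 ± 83.4), MAGEA10 (554 ± 38.7), MAGEA1 (26.0 ± 2.51), MAGEC1 (6.60 ± 0.786) and MAGEA8 (0.669 ± 0.636). The value of MAGEA2 rests on 91 words of unshared sequence and was 75.1 per kilobase of whole exon length, so its place is uncertain. With HMGB2 OE, MAGEA1 stood at 152 ± 14.9 per kilobase, still the eighth in this order. No neighbours in this order had overlapping library ranges with the empty vector, and with HMGB2 OE only MAGEC1 and MAGEA8 overlapped. Per kilobase of whole exon length MAGEC2 (4971 ± 741) stood above MAGEA6 (3372 ± 596) with the empty vector, so the order of this pair depends on the length used. On that length MAGEA1 moved from place 8 with the empty vector (25.1 ± 2.42) to place 7 with HMGB2 OE (146 ± 14.4), above MAGEA2 (82.5 ± 15.1), and MAGEC2 (5596 ± 497) stood above MAGEA3 (5468 ± 599.5) with HMGB2 OE, a difference within their spread. MAGEA1 remained below MAGEA10 (556 ± 17.4) and above MAGEC1 (3.59 ± 0.808) in HMGB2 OE.

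The members fall into groups along the X chromosome. MAGEA3, MAGEA12, MAGEA2 and MAGEA6 had starts 15.8 to 35.0 kb from the start of the nearest other member. The start of MAGEA1 lay 410 kb from MAGEA6, its nearest member, and 11.3 Mb from MAGEC1. MAGEA1 and MAGEA6 had log2 fold changes of 2.55 and 0.05.

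Promoter windows of RefSeq (GRCh38.p14, 250 bases before to 50 after the start) were found for 8 of the 10 members, the exceptions being MAGEA1 and MAGEA10. Where a gene had several windows, only that of the most upstream start was used. MAGEA4 had 5 windows, and MAGEA2 and MAGEA12 had 2 each. The 100 bases before the start are shown for members of high and low level, with the letters GGATGT in capitals. This motif, which contains the GGAT core bound by some ETS factors, was picked after the sequences had been seen. The windows printed lie at chrX:151912374-151912473 (plus strand) for MAGEA4, chrX:152698694-152698793 (plus strand) for MAGEA3, chrX:142205291-142205390 (minus strand) for MAGEC2, chrX:141903794-141903893 (plus strand) for MAGEC1 and chrX:149881083-149881182 (plus strand) for MAGEA8.
MAGEA4: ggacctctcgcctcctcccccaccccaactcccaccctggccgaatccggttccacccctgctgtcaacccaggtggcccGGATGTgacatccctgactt
MAGEA3: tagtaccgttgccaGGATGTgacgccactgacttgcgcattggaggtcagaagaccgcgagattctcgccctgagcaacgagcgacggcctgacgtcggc
MAGEC2: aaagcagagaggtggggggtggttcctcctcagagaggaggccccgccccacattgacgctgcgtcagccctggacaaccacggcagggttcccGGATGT
MAGEC1: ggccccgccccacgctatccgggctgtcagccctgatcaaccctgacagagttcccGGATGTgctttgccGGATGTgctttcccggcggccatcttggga
MAGEA8: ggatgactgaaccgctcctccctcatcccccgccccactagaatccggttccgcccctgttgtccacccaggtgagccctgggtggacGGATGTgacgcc

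GGATGT, searched on both strands, was present in 8 of the 8 windows and in 10.3% of 27305 genes with a window. MAGEC1, at 6.60 normalized counts per kilobase, had 3 matches, whereas MAGEC2, at 5099, had 1. CCGGAT was present in 6 of the 8 and in 7.03% of all genes, and a match of CCGGAT can overlap a match of the first motif. The letters CCGGAA were present in 2, MAGEA3 and MAGEA6, whose windows were identical, and in 17.6% of all genes. TGANTCA, a loose form of the AP-1 motif in which N is any base, was present in 0 of the 8 and in 7.72% of all genes. The windows held between 9 and 19 CpG dinucleotides, against a median of 13. Matches are a description of the letters and not of binding, and members with a match ranged from the highest to the lowest level.

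The other type I MAGE genes were mostly at low counts and none was called. Of 17 IDs, 4 were at 0 in all libraries and 4 had an adjusted p (MAGEA11, MAGEA2B, MAGEB2 and MAGEB6). DESeq2 called 0 of these 4, 1 had an unadjusted p under 0.05 (MAGEB2), and edgeR called 0 of 3 tested. Their median log2 fold change was -0.50, against 0.0027 over all genes. MAGEA11, a coregulator of the androgen receptor, was the most abundant at 2332 ± 359 with the empty vector and 2143 ± 240 with HMGB2 OE (log2 fold change -0.12, DESeq2 adjusted p = 0.821). MAGEB2 had 40.4, 37.2 and 53.7 against 23.6, 23.6 and 23.6, groups that did not overlap, but it did not pass the test (log2 fold change -0.88, SE 0.37, DESeq2 adjusted p = 0.178). MAGEA2B, the copy of MAGEA2, was not called either (log2 fold change 0.22, DESeq2 adjusted p = 0.871), nor was MAGEB6 (log2 fold change -1.06, DESeq2 adjusted p = 0.578).

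Among type II MAGE genes, 8 of 12 had an adjusted p and 1, TRO, rose, beside 2.29% of all tested genes called higher. TRO (trophinin, ENSG00000067445; hg38 chromosome X, 54920462 to 54931431, plus strand), an adhesion protein studied in embryo implantation, had normalized counts of 35.4, 35.4 and 31.1 with the empty vector and 106, 86.7 and 74.3 with HMGB2 OE. The groups were apart, and the mean rose from 34.0 ± 2.47 to 89.1 ± 16.1 (SD, n = 3; log2 fold change 1.39, SE 0.29, DESeq2 adjusted p = 0.000153). TRO was called in all 14 alternative settings, with log2 fold changes of at least 1.24. The 3 most abundant type II genes that were not called were MAGED1, MAGED2 and MAGEF1. MAGED1, an adaptor of the p75 neurotrophin receptor, had a mean of 5178 ± 399.9 with the empty vector and 6231 ± 385 with HMGB2 OE (log2 fold change 0.27, DESeq2 adjusted p = 0.17). Its groups did not overlap, as for 21.9% of all tested genes. It was called with replicates 1 and 2 alone, a setting in which 17.4% of all tested genes were called. For MAGED2 the log2 fold change was 0.09 (DESeq2 adjusted p = 0.802), and for MAGEF1 it was 0.13 (DESeq2 adjusted p = 0.653). The median of the 8 was 0.11.

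**Figure D4:**
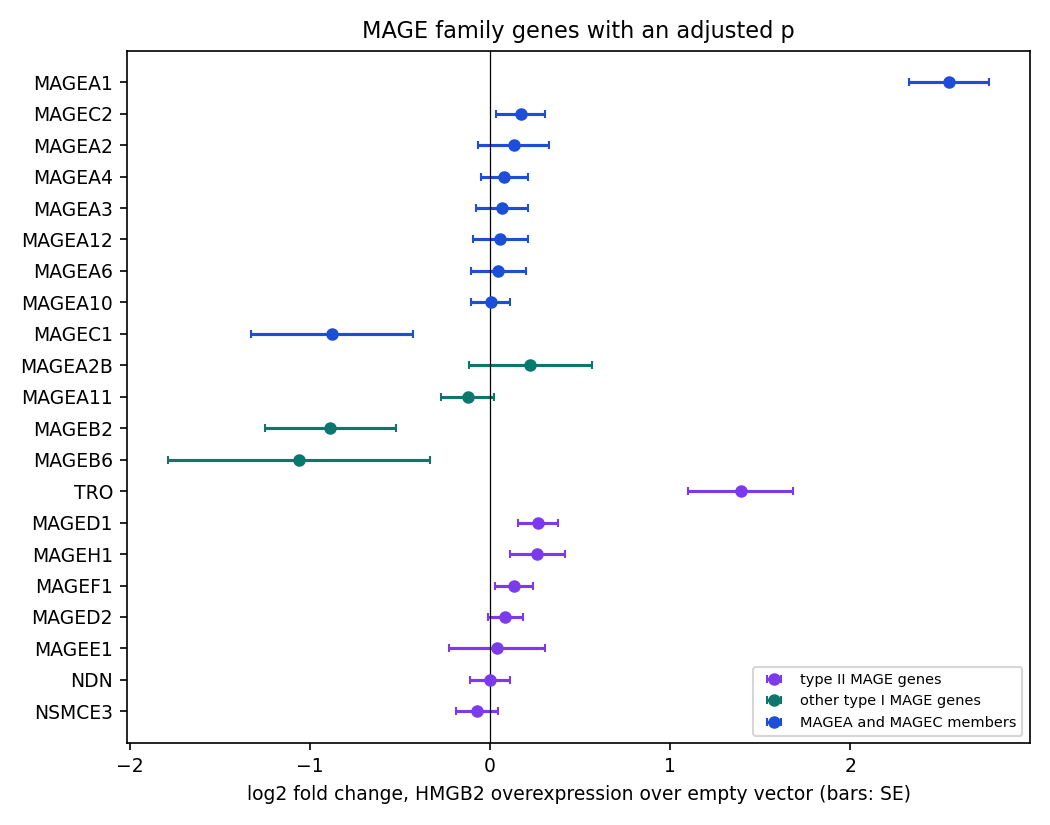
Points show the log2 fold change (HMGB2 OE minus empty vector) of the MAGE genes with an adjusted p, with bars for the SE of the model. MAGEA1 lies at 2.55, a value known when the members were chosen, TRO at 1.39 and MAGEB6 at -1.06, the lowest.

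The ubiquitin ligases and substrates with which MAGE proteins act, 19 genes, all had an adjusted p, and 1 fell, a share near the 4.94% of all tested genes called in either direction and so no result about the list. LNX1, a RING ligase of the NUMB protein, had 394 ± 25.8 with the empty vector and 288 ± 16.7 with HMGB2 OE (log2 fold change -0.45, SE 0.14, DESeq2 adjusted p = 0.0371). Its count held only 28.9% of its stranded sum, and LNX1 was not called when any 1 library was left out (DESeq2 adjusted p from 0.0649 to 0.419). The abundant partners were not called. TRIM28, the ligase bound by MAGEA2, MAGEA3, MAGEA6 and MAGEC2, differed by -0.10 on the log2 scale (DESeq2 adjusted p = 0.798). The ligase HUWE1 differed by -0.12 (DESeq2 adjusted p = 0.867) and the conjugating enzyme UBE2H by -0.02 (DESeq2 adjusted p = 0.965). The median of the 19 was -0.10.

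Of 33 genes known to silence or activate germline genes, 32 had an adjusted p, 1 rose and 1 fell, which is also near the 4.94% called over all tested genes. HDAC1, a histone deacetylase, rose from 13526 ± 443 to 16943 ± 1182 (log2 fold change 0.32, SE 0.10, DESeq2 adjusted p = 0.0258). EZH2, the methyltransferase of Polycomb repressive complex, fell from 4993 ± 197 to 4095 ± 171 (log2 fold change -0.29, SE 0.09, DESeq2 adjusted p = 0.049). Both lost their call without any single library other than empty vector replicate 3, with DESeq2 adjusted p up to 0.375 for HDAC1 and 0.518 for EZH2, and edgeR called neither. The log2 fold changes moved little with 1 library left out, from 0.28 to 0.38 for HDAC1 and from -0.32 to -0.26 for EZH2, and with a batch term for replicate number 3 both were called (DESeq2 adjusted p = 1.0e-05 and 8.1e-05). The histone demethylase KDM1A (log2 fold change 0.10, DESeq2 adjusted p = 0.704), the deacetylase HDAC2 (0.12, DESeq2 adjusted p = 0.664) and DNMT1, the maintenance DNA methyltransferase, were abundant and not called. DNMT1 had 9973, 9787 and 5558 against 7166, 8835 and 6076 (log2 fold change -0.20, DESeq2 adjusted p = 0.797), so its spread between libraries was wide. CTCFL, a germ cell paralogue of CTCF, was at 0 in 4 of the 6 libraries and had no adjusted p. The median of the 32 was -0.01. With DESeq2, 6 of the 32 had an unadjusted p under 0.05: DNMT3B, TET1, HDAC1, EZH2, L3MBTL2 and ETS1. DNMT3B, a DNA methyltransferase gene, differed by 0.51 on the log2 scale (DESeq2 adjusted p = 0.114) and TET1 by 0.62 (DESeq2 adjusted p = 0.214). The groups did not overlap for 9 of the 32, beside 21.9% of all tested genes.

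Genes beside the members on the chromosome were examined within 250 kb of a member's start. Of 66 IDs, 29 were at 0 in all libraries, 20 had an adjusted p and 1 rose, beside 2.29% of all tested genes called higher. SPANXD, a cancer-testis gene of the sperm nucleus lying 205 kb from MAGEC1, had 3.03, 4.43 and 3.22 with the empty vector and 30.0, 33.5 and 41.6 with HMGB2 OE. The groups were apart, with 11 raw reads against 104 (log2 fold change 3.28, SE 0.60, DESeq2 adjusted p = 7.12e-06). The share of 50-base words it has in common with other genes was 41.7%, mostly with SPANXC, so reads of the SPANX copies cannot be fully told apart. The nearest tested genes to MAGEA1 were PNMA6A, 107 kb away (log2 fold change 0.74, DESeq2 adjusted p = 0.774), and ZNF275, 155 kb away (log2 fold change -0.22, DESeq2 adjusted p = 0.357), and neither was called.

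The abundant neighbours were not called. NSDHL, an enzyme of cholesterol synthesis, differed by 0.13 on the log2 scale (DESeq2 adjusted p = 0.664), and CSAG1, which starts 0.022 kb from MAGEA12, by 0.11 (DESeq2 adjusted p = 0.739). CETN2, a centrin of the centrosome that lies 61.0 kb from the nearest member, differed by 0.40 without overlap of the groups (SE 0.15, DESeq2 adjusted p = 0.0994). All 3 CSAG genes, which interleave with the MAGEA genes and are also cancer-testis genes, had an adjusted p, and 0 were called by DESeq2 or edgeR, with 0 at an unadjusted p under 0.05. CSAG2 differed by -0.17 and CSAG3 by 0.03 on the log2 scale (DESeq2 adjusted p = 0.955 and 0.958).

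**Figure D5:**
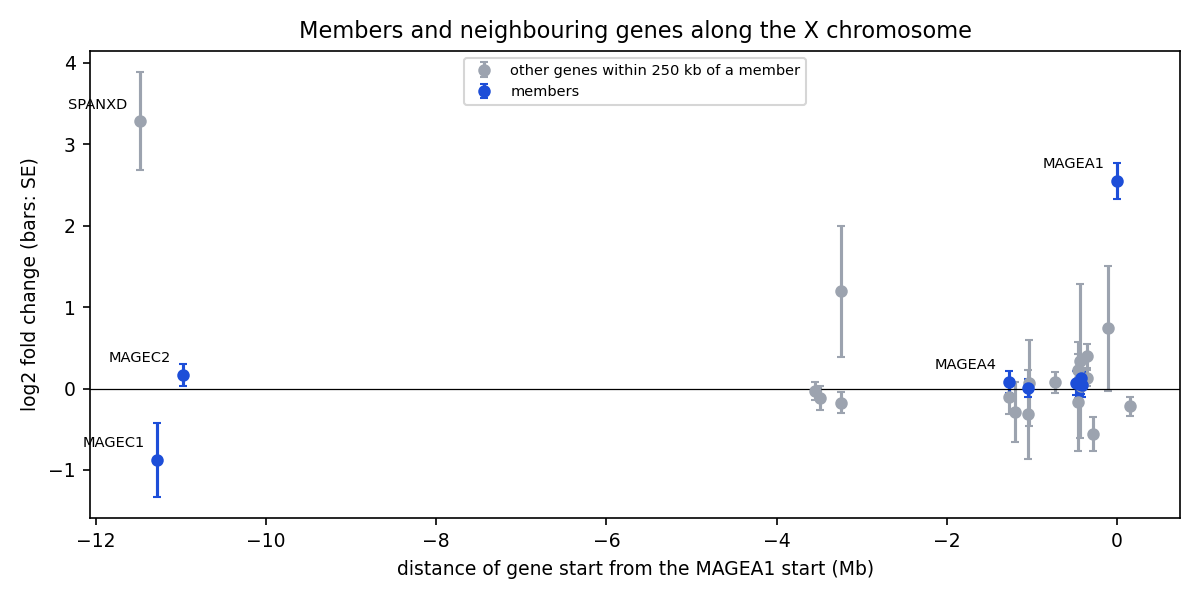
Points show the log2 fold change (HMGB2 OE minus empty vector) of members and neighbouring genes with an adjusted p, by distance along chromosome X from the start of MAGEA1. MAGEA1 (2.55) and SPANXD (3.28) lie above all others, and MAGEA3 (0.07) and MAGEA6 (0.05) lie near 0. Bars show the SE of the model.

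The genes whose pattern over the 6 libraries was most like that of MAGEA1 were found from the root mean square difference of centred log2 normalized counts, over the 13332 genes whose mean normalized count reached 50. They were NPTX2, a neuronal pentraxin (0.343), CDH11, a mesenchymal cadherin (0.370), PLXDC2, a membrane protein (0.376), HAS2, a hyaluronan synthase (0.385), and IGFBP5, an insulin-like growth factor binding protein (0.433). NPTX2, the most alike, had 155, 149 and 170 against 581, 557 and 598. Among members with enough counts, MAGEC2 was the nearest to MAGEA1 at rank 2327, with a difference of 1.18. The measure describes likeness over 6 libraries that share their groups, and no test was made.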

How the data were processed

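Poly(A) RNA of A375 cells was sequenced in 6 libraries, 3 per group, grouped by the sample titles. The authors trimmed reads with Trimmomatic and aligned them to hg38, and deposited raw counts per gene in the layout of STAR; the STAR version and annotation release are not given in the sources used here. The column for either strand was used, in which a read is counted when it maps to 1 place in 1 gene. Symbols came from GENCODE 44, which held 57532 of 58302 IDs. The 4 summary lines were left out.

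Counts were fitted with DESeq2 1.42.0 in R 4.3.3 (Wald test, group only, default independent filter at 0.1). edgeR 4.0.16, other scalings and filters, the sum of the stranded columns, a replicate block, a batch term for the third replicates, replicates 1 and 2 alone and leaving out each library were alternatives. Of each list, called genes and the 3 most abundant genes not called were named. KRT5, marker genes, germline regulators named for an unadjusted p under 0.05 and the genes nearest to MAGEA1 were added after their values were seen. The GGATGT motif was also added then. The members and lists were chosen with earlier results of these data known. Intervals cover counting error only, since reads were summed over the 3 libraries of each group and the spread between libraries does not enter. The reads carried no molecular identifiers.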

Additional observations from a re-analysis of the deposited data

Results flagged for a closer look

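Multimapped reads, which the comparisons do not use, made up 4.89% of all reads in HMGB2 OE replicate 1 and 10.6% in HMGB2 OE replicate 3, above the highest empty vector library at 3.96%. The normalized count of MAGEA3 in those libraries was 9095 and 10922, and that of MAGEA1 was 223 and 255. The part of multimapped reads in the members' counts was not tested.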

How the results depend on the processing

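TRO kept its direction and call in all 14 settings. The MAGEA1 values in these settings, like those of the other members, are a description of the contrast by which the members were chosen. The number of genes called over all genes, 930 as reported, was 2733 with a batch term for replicate number 3, 470 with edgeR, 1826 with the replicate block, 2621 with replicates 1 and 2 alone, and 363 to 2854 with 1 library left out, the highest without empty vector replicate 3 and the lowest without empty vector replicate 1. Of all tested genes, 4.94% were called as reported, 17.3% with the batch term and 17.4% with replicates 1 and 2 alone. Without empty vector replicate 3 the share was 17.8%. No share was computed for the other settings, so list counts in those stand without one. As reported, 8 type II, 19 partner, 32 germline regulator and 20 neighbouring genes had an adjusted p. Members called, 1 as reported, were 2 with the batch term, 3 with replicates 1 and 2 alone, and 1 to 2 with 1 library left out. Type II MAGE genes called, 1 as reported, were 2 with the batch term, the replicate block, and replicates 1 and 2 alone. Partner genes called, 1 as reported, were 4 with the batch term, 3 with the block, 6 with replicates 1 and 2 alone, 0 with edgeR, 0 with no independent filter, 0 with the sum of the stranded columns, and 0 to 6 with 1 library left out. Germline regulators called, 2 as reported, were 0 with edgeR, 1 with no independent filter, 1 with the stranded sum, 6 with replicates 1 and 2 alone, and 0 to 7 with 1 library left out. Genes near the members called, 1 as reported, were 2 with the batch term, 2 with replicates 1 and 2 alone, and 1 to 3 with 1 library left out. Where no partner gene was called, 1 to 3 had an unadjusted p under 0.05, and where no germline regulator was called, 3 to 6 had. The highest counts with 1 library left out, 6, 7 and 3, were those without empty vector replicate 3. The cause was not tested.

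The log2 fold change of MAGEA2 was -0.0513 with replicates 1 and 2 alone and -0.0174 to 0.242 with 1 library left out. With 1 library left out it was 0.0101 to 0.210 for MAGEA4 and 0.0945 to 0.301 for MAGEC2, and it was -0.0275 to 0.200 for MAGEA3, -0.0568 to 0.201 for MAGEA6, -0.0336 to 0.0643 for MAGEA10 and -0.0305 to 0.229 for MAGEA12, so no direction is given for MAGEA2, MAGEA3, MAGEA6, MAGEA10 and MAGEA12. Same-numbered libraries had correlations of 0.0906, 0.142 and 0.349 between deviations from group means. Empty vector replicates 2 and 3 correlated best with the HMGB2 OE library of the same number, and replicate 1 with HMGB2 OE replicate 2 (0.212). The third libraries correlated negatively with those numbered 1 and 2 of the other group (-0.272 to -0.137). That sign is no separate evidence, since the 3 deviations within a group sum to 0 for each gene. By their own correlation of 0.349 the third libraries had deviations in common, while a pairing of replicates 1 and 2 by number is unclear. The block is given only here. Depth limits MAGEA8 and MAGEC1, which had few reads, and shared sequence limits MAGEA2, MAGEA3 and MAGEA6. For SPANXD, 12 of the 14 settings gave an adjusted p, and it was called in these.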
